A study of Mus musculus with 36 samples.

Results

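Trim12a, Ifi44l, Slc5a7, AI506816, Dmbt1 and Sycp1 are 6 of the 21650 genes in the deposited expression table, and they were chosen by their measured differences between the strains: 4T1 tumors differed from Py230 tumors by about as much as BALB/c mammary glands without tumor differed from C57BL/6 glands. These differences, in tumors and in glands, are therefore described here without a test, and tests were run on what the choice did not use, namely tumors against glands and the change over time, both averaged over the strains. The choice has no numerical threshold.

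RNA-seq was performed on 36 libraries in 12 groups of 3. 4T1 cells, a metastatic mammary tumor line derived from BALB/c and carrying firefly luciferase, were grown in the milk ducts of BALB/c females. Py230 cells, a line from mammary tumors of MMTV-PyMT transgenic mice (polyoma middle T antigen under a mammary tumor virus promoter) on a C57BL/6 background, were grown in C57BL/6 females. Matrigel, the carrier of the cells, was given alone to control glands of either strain, and each kind of tissue was taken at 1, 3 and 6 weeks (w) post-inoculation (p.i.). Every mouse was a female inoculated in the third mammary gland shortly after her pups were weaned, so that tumors and controls share the end of lactation. The labels give no age at sampling, and the methods state one only for the mating, done in young adults. Wild-type C57BL/6 mice and albino NF-kB luc/Tyr-/- C57BL/6 mice both occur in the methods, and which of them gave these libraries is not given in the sources used here. Each model is 1 cell line in 1 strain, so that among the tumors line and strain cannot be told apart. A tumor library holds RNA of the inoculated cells and of the host tissue around them, and in such bulk samples fewer cells of a type and less RNA per cell cannot be told apart.

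All values are scores, since the deposited table is standardized, with every library centred on 0 and its SD across genes set to 1. A difference of 1 is thus 1 SD of the genes of a library and not a doubling, and the depth of the libraries is unknown. The lowest score of a library lay between -2.68 and -2.41 and the highest between 3.21 and 4.11. The libraries correlated with each other at up to 0.993, and at no less than 0.947 within a group. H2-Ea-ps, a class II histocompatibility gene whose transcript is known to be missing in C57BL/6, scored 1.15 to 2.61 in the 18 BALB/c libraries and -1.0 to -0.67 in the 18 C57BL/6 libraries, as the strain labels give it. Its C57BL/6 scores were above the lowest scores of the libraries, so a low score alone does not show that a transcript is present.

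Inbred strains differ at fixed sequence variants, and such variants can set the level of a transcript in every tissue of a strain, including a tumor line that arose in it. Families that face microbes, such as the tripartite motif (TRIM) genes and the interferon-inducible genes, are known to vary between strains. A gene that differs between 2 syngeneic tumor models can hence also differ between the hosts, and the Matrigel glands show the host side of this.

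The members sit at separate places of the genome (build mm10, GENCODE release 21 for mouse). Trim12a (ENSMUSG00000066258, chr7:104299894-104315466, minus strand) encodes a rodent relative of the antiviral factor TRIM5. Ifi44l (ENSMUSG00000039146, chr3:151758737-151762892, minus strand) encodes an interferon-induced protein, and GENCODE tags the gene with an error of the reference genome. Slc5a7 (ENSMUSG00000023945, chr17:54273590-54299034, minus strand) encodes the high-affinity choline transporter of cholinergic neurons. AI506816 (ENSMUSG00000105987, chr5:23698296-23712667, minus strand) is annotated as a processed transcript that hosts a small non-coding RNA, with no protein. Dmbt1 (ENSMUSG00000047517, chr7:131032053-131121630, plus strand) encodes a secreted scavenger receptor cysteine-rich glycoprotein of epithelia that binds bacteria. Sycp1 (ENSMUSG00000027855, chr3:102818499-102936100, minus strand) encodes the transverse filament protein of the synaptonemal complex, which holds paired chromosomes together in meiosis. The authors' mean normalized count over the libraries of their comparison was 937 for AI506816, 924 for Dmbt1, 310 for Slc5a7, 201 for Trim12a, 153 for Ifi44l and 10.6 for Sycp1. Sycp1 was thus a weakly detected gene, with 12.5% of the genes below it.

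Reads of 75 bases can fit more than 1 gene. In the longest annotated transcript, 7.25% of the windows of 75 bases of AI506816, 1.83% of those of Trim12a and 1.43% of those of Sycp1 occurred exactly in a transcript of another gene, for Sycp1 the pseudogene Sycp1-ps1. No such window was found for Ifi44l, Slc5a7 or Dmbt1. The annotated span of Fgfr2 covers Dmbt1, and how the counting treated strand is not given in the sources used here. The reads were mapped to mm10, a C57BL/6 sequence, while 18 of the libraries are from BALB/c, and the part of this in the members' values was not tested. Over all genes the glands gave 1191 genes called higher and 1188 called lower in BALB/c. With cyclic loess scaling these counts were 1109 and 1344, and with median and MAD scaling 1342 and 1205. The scores are centred in every library, so these counts cannot show the part of the mapping.

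Promoter windows were at hand for 5 of the 6 members, as 300 bases each from RefSeq on GRCm38.p6 (250 before the start of the gene and 50 after it), and Dmbt1 has none. They were searched for the motif GAAA followed, after any 2 bases, by GAAA again, the core of the element that interferon-activated factors bind, on either strand and with overlaps allowed. The motif occurred in 1131 of 32851 windows of the table (3.44%) and in 2 of the 5 members. The windows of the interferon-linked members and of the second gene with a match are shown, 5′ to 3′ on the strand of the gene, with the match in capitals. That of Trim12a (chr7:104315446-104315745, minus strand) holds it on the reverse strand from base 261, after the RefSeq start but before the start of the GENCODE gene given above, that of Sycp1 (chr3:102936051-102936350, minus strand) on the forward strand from base 43, and that of Ifi44l (chr3:151762842-151763141, minus strand) on neither strand.
Trim12a: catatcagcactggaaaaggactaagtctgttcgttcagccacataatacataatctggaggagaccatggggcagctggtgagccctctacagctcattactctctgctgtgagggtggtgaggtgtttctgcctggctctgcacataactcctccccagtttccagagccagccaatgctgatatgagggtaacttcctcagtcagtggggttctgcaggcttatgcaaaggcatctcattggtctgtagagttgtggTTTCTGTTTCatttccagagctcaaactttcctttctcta
Ifi44l: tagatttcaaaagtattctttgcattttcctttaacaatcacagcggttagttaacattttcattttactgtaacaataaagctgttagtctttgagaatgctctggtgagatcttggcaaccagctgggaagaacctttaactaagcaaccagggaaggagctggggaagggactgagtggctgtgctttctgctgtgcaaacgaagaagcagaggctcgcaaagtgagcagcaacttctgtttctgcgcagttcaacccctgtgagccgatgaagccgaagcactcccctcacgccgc
Sycp1: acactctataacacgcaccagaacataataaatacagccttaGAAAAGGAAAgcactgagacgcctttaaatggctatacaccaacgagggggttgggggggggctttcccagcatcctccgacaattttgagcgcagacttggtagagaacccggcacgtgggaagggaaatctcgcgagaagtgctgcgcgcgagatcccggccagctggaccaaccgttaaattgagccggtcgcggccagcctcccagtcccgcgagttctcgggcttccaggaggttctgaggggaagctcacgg
A match is a description of these letters and no evidence of binding.

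The level of each member followed the strain in tumors and glands alike. Trim12a, Slc5a7, AI506816 and Dmbt1 were lower in both BALB/c tissues, whereas Ifi44l and Sycp1 were higher there. For 5 of the 6 members every one of the 18 BALB/c libraries lay apart from every one of the 18 C57BL/6 libraries, the exception being Dmbt1. Among all genes 0.767% were separated in this way (0.383% with BALB/c above and 0.383% below), and nothing is read from the members' count, since they were chosen on it.

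Trim12a was the most regular member. It scored between -1.15 and -0.80 (median -0.95) in the 9 4T1 tumors and between -1.15 and -0.86 (median -0.97) in the 9 BALB/c glands. In the 9 Py230 tumors it scored 0.15 to 0.43 (median 0.35) and in the 9 C57BL/6 glands 0.33 to 0.50 (median 0.36). The gap between the highest BALB/c and the lowest C57BL/6 library was 0.949, wider than the range within either strain. Within a library this means a place above 17.5% to 25.5% of the genes in BALB/c tissues and above 48.6% to 62.7% in C57BL/6 tissues.

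Ifi44l went the opposite way. Its scores were -0.05 to 0.58 (median 0.30) in 4T1 tumors and -0.39 to 0.28 (median -0.12) in BALB/c glands. In Py230 tumors they were -1.54 to -1.27 (median -1.48) and in C57BL/6 glands -1.57 to -1.38 (median -1.53). All C57BL/6 libraries were low and close together, above no more than 15.2% of the genes, while the BALB/c libraries spread widely.

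Slc5a7 was near the low end in BALB/c tissues, at -1.37 to -1.18 (median -1.29) in 4T1 tumors and -1.34 to -0.43 (median -1.27) in BALB/c glands. It was in the upper part of the genes in C57BL/6 glands, at 0.46 to 0.93 (median 0.58), and reached from -0.27 to 0.70 (median 0.45) in Py230 tumors. The strains were only 0.169 apart at the closest libraries, BALB/c gland 2 of 6 w p.i. on one side and Py230 tumor 1 of 6 w p.i. on the other. That gland was the one BALB/c library far above the others, which did not exceed -1.16.

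AI506816 scored -0.77 to 0.14 (median -0.57) in 4T1 tumors and -0.84 to -0.53 (median -0.64) in BALB/c glands. It scored 0.91 to 1.52 (median 1.30) in Py230 tumors and 0.71 to 1.07 (median 0.85) in C57BL/6 glands. Tumors of each strain overlapped with the glands of their strain but reached higher.

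Dmbt1 was the least regular. Its scores ran from -1.01 to -0.01 (median -0.64) in 4T1 tumors and from -0.59 to 0.66 (median -0.16) in BALB/c glands. They ran from -0.03 to 1.46 (median 1.00) in Py230 tumors and from 0.75 to 1.32 (median 1.15) in C57BL/6 glands. The strains overlapped by 0.687, through Py230 tumors of 3 and 6 w p.i. on one side and BALB/c glands of the same weeks and 4T1 tumor 3 of 3 w p.i. on the other, while the glands of the 2 strains did not overlap.

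Sycp1 showed the smallest difference, close to the bottom of the table. It scored -1.4 to -0.87 (median -1.28) in 4T1 tumors and -1.43 to -1.17 (median -1.26) in BALB/c glands, against -1.76 to -1.65 (median -1.71) in Py230 tumors and -1.77 to -1.70 (median -1.74) in C57BL/6 glands. In C57BL/6 tissues it stood above 3.86% to 5.50% of the genes, and in BALB/c tissues above 10.8% to 26.2%.

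**Figure D1:**
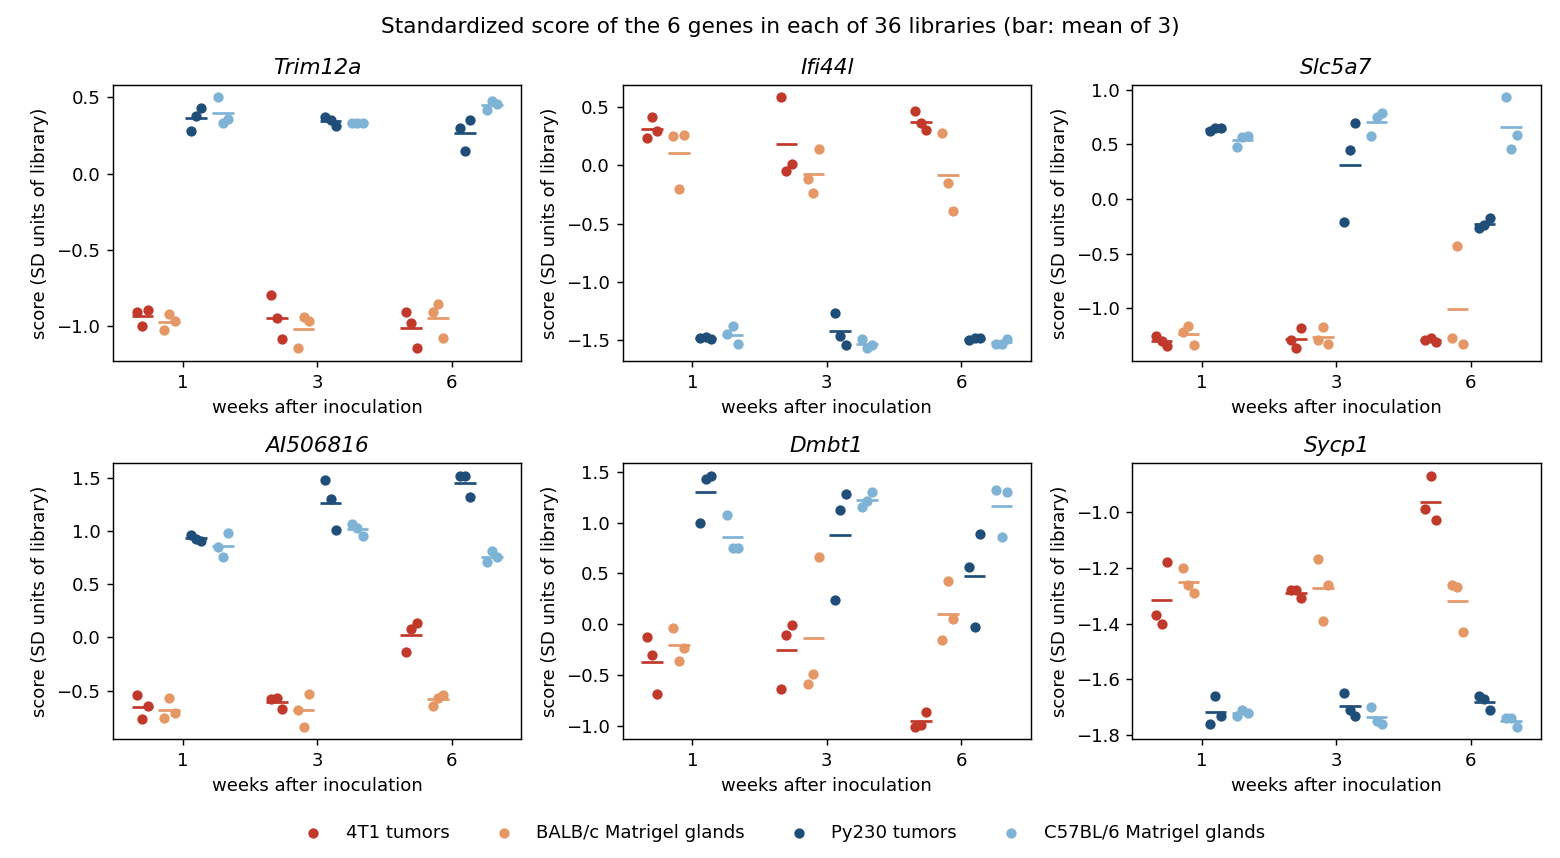
Score of each of the 6 genes (vertical axis, in SD units of the genes of a library) against weeks after inoculation, with 1 point per library and a bar at the mean of 3 libraries, for 4T1 tumors, BALB/c Matrigel glands, Py230 tumors and C57BL/6 Matrigel glands. Both BALB/c tissues sit together and apart from both C57BL/6 tissues in 5 panels, and in the Dmbt1 panel the strains overlap.

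Of the variation of the scores over the 36 libraries, the strain accounted for 98.3% in Trim12a, 94.6% in Ifi44l, 90% in AI506816, 88.6% in Slc5a7, 84.3% in Sycp1 and 70.2% in Dmbt1, while the median of all genes was 4.45%. These shares describe what the choice used. The next largest parts differed between the members. In Dmbt1 14.2% lay between libraries of a group and 7.39% was a difference between tumors and glands that changed with the week, which was also the next part in Sycp1 (4.17% within groups and 4.16% for this term). AI506816 had 3.02% for tumors against glands, and Trim12a had no part above 1.19% other than the strain.

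The comparison of both strain differences at each week shows how far the tumor difference equals the gland difference. In Trim12a the tumor difference (4T1 minus Py230) was -1.30 after 1 week, -1.29 after 3 weeks and -1.28 after 6 weeks (standard error, SE, 0.073 each, n = 3 per group), and the gland difference (BALB/c minus C57BL/6) was -1.37, -1.35 and -1.4. The tumor difference was thus 0.953, 0.958 and 0.914 times that of the glands, and the gap stayed within 0.122 with an SE of 0.103 (0.19 at 6 w p.i. without 4T1 tumor 3 of that week).

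In AI506816 the tumor differences were -1.59, -1.87 and -1.43 (SE 0.0923) beside gland differences of -1.54, -1.70 and -1.34. Both were largest in size at 3 w p.i., and they were within 0.170 of each other. The change of these differences over the weeks was not tested. Without Py230 tumor 3 of 3 w p.i. the gap at that week was 0.298 in size. In Ifi44l the tumor differences were 1.79, 1.60 and 1.86 (SE 0.141) and the gland differences 1.56, 1.46 and 1.43. The tumor value was the larger at each week with all libraries, by 0.433 (SE 0.20) at 6 w p.i., but without 4T1 tumor 1 of 3 w p.i. the tumor difference of that week was 1.4 and so below that of the glands. Without BALB/c gland 2 of 1 w p.i. the gap of that week was 0.0826 in place of 0.234, and without 4T1 tumor 2 of 3 w p.i. that of 3 w p.i. was 0.256 in place of 0.140. The gap of 6 w p.i. was 0.282 without BALB/c gland 3 and 0.616 without BALB/c gland 1 of that week.

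Slc5a7 had the widest gap of the members with all libraries, at 6 w p.i., close in size to the 0.604 of Dmbt1 at 1 w p.i. Its tumor difference was -1.95 at 1 w p.i., -1.59 at 3 w p.i. and -1.06 at 6 w p.i. (SE 0.173), and the gland difference -1.78, -1.97 and -1.67. At 6 w p.i. the tumors kept 0.635 of the gland difference, a gap of 0.610 (SE 0.245). This gap was 0.451 without BALB/c gland 3 and 0.9 without BALB/c gland 2 of that week. The gap of 0.380 at 3 w p.i. was 0.116 without Py230 tumor 1 and 0.574 without Py230 tumor 3 of that week.

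Dmbt1 had tumor differences of -1.67, -1.13 and -1.42 (SE 0.277) beside -1.06, -1.37 and -1.06 in glands. The gap between them was between 0.233 and 0.604 in size with an SE of 0.392, and with all libraries its sign changed from week to week. At 3 w p.i. the gap was 0.633 without BALB/c gland 3, where the gland difference was -1.77, and it turned to -0.089 without Py230 tumor 1. At 6 w p.i. it was -0.619 without Py230 tumor 2 and -0.161 without Py230 tumor 3, in place of -0.367. The gap of 1 w p.i. was -0.753 without Py230 tumor 1 and -0.446 without 4T1 tumor 3 of that week, in place of -0.604. In Sycp1 the tumor differences of 0.400 and 0.410 at 1 and 3 w p.i. (SE 0.054) were close to 0.469 and 0.466 in glands, but at 6 w p.i. the tumor difference of 0.715 was 1.67 times the gland difference of 0.428.

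The 2 differences were thus not equal for every member at every week. The median size of the gap between both differences was 0.117 at 1 w p.i., 0.155 at 3 w p.i. and 0.327 at 6 w p.i. over the 6 members, and it was 0.0884, 0.108 and 0.135 over all genes, most of which have small differences to begin with. All 6 members kept their direction in tumors and glands at each week.

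**Figure D2:**
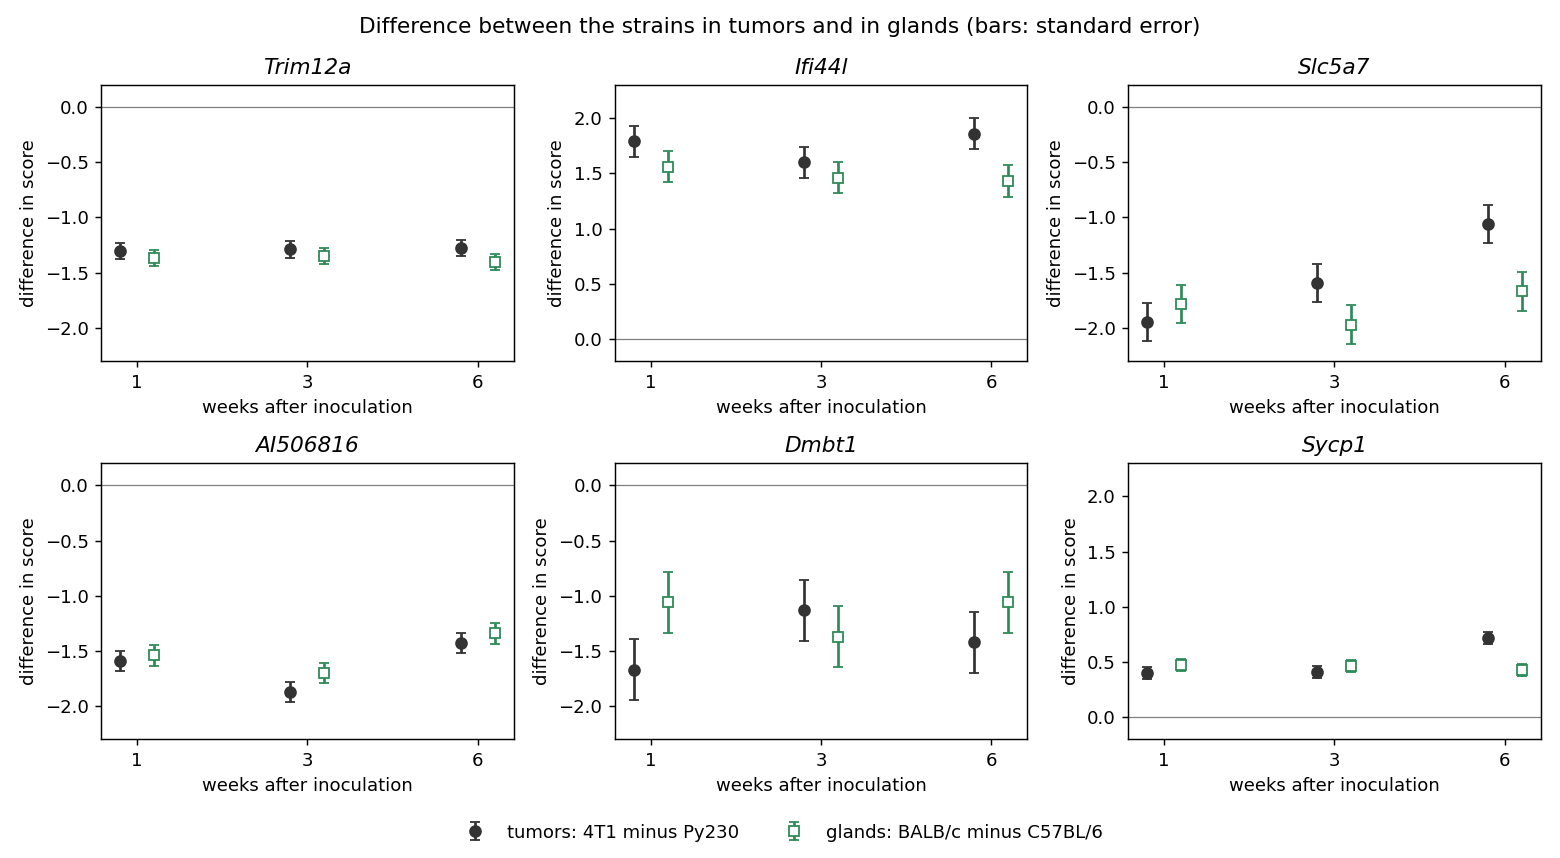
Difference in score between the strains (vertical axis) against weeks after inoculation for each gene, in tumors (filled circles, 4T1 minus Py230) and in Matrigel glands (open squares, BALB/c minus C57BL/6), with standard errors from the linear model. The symbols lie close together for Trim12a and AI506816. At 6 weeks they are apart by 0.610 for Slc5a7, 0.433 for Ifi44l, 0.367 for Dmbt1 and 0.287 for Sycp1.

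Tumors were next compared with glands, averaged over both strains, which the choice of the members did not use. Scores were fitted with limma over all 36 libraries and p-values were adjusted by Benjamini-Hochberg over the 21650 genes. At 1 w p.i. none of the 6 members passed an adjusted p of 0.05, and none had an unadjusted p under 0.05, where 1.97% of all genes passed. At 3 w p.i. again none passed, with 16.2% of all genes called, and these shares rest on a spread estimated over all weeks, since fits to the 12 libraries of a single week called 0 genes at 1 w p.i. and 21 higher and 11 lower at 3 w p.i. Of the members AI506816 had an unadjusted p under 0.05 (difference 0.163, SE 0.0653, adjusted p = 0.0814). AI506816 did pass at 3 w p.i. without BALB/c gland 3 of that week (0.202, adjusted p = 0.0448) or without Py230 tumor 3 of that week (0.227, adjusted p = 0.00626).

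At 6 w p.i. all 6 members passed, 3 of them higher and 3 lower in tumors, when 66.7% of all genes passed (42.1% higher and 24.7% lower), so that a call at this week is common. With cyclic loess scaling the genes called higher made up 50.8% of the calls in place of 63.0%. The median difference of all genes was 0.0517, and 0.00341 with cyclic loess. The members' differences below were not shifted for it.

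AI506816 was the most clearly higher in tumors. At 6 w p.i. it scored -0.14, 0.08 and 0.14 in 4T1 tumors, above -0.64, -0.57 and -0.54 in BALB/c glands, and 1.52, 1.52 and 1.32 in Py230 tumors, above 0.71, 0.81 and 0.76 in C57BL/6 glands. Neither strain showed an overlap. The mean difference was 0.653 (SE 0.0653, adjusted p = 4.68e-09), from 0.609 in the 4T1 and 0.697 in the Py230 model.

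Dmbt1 fell by 0.871 (SE 0.196, adjusted p = 0.000386). It scored -1.01, -0.99 and -0.86 in 4T1 tumors against -0.16, 0.42 and 0.05 in BALB/c glands, without overlap. In Py230 tumors it scored 0.56, -0.03 and 0.89 against 1.32, 0.86 and 1.30 in C57BL/6 glands, where Py230 tumor 3 overlapped with C57BL/6 gland 2.

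Slc5a7 was lower in tumors than in glands by 0.581 (difference -0.581, SE 0.122, adjusted p = 0.000187). The Py230 tumors scored -0.27, -0.24 and -0.17, all below the 0.93, 0.46 and 0.59 of C57BL/6 glands. The 4T1 tumors scored -1.29, -1.27 and -1.31 beside -1.27, -0.43 and -1.33 in BALB/c glands, so that in this strain only gland 2 stood above the tumors. The difference was -0.886 in the Py230 and -0.275 in the 4T1 model (SE 0.173 each), and without BALB/c gland 2 the mean of both was still -0.436, the smallest of the values found by leaving out single libraries.

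Sycp1 was higher in tumors than in glands by 0.213 (SE 0.0382, adjusted p = 2.68e-05), with 0.323 under median and MAD scaling and 0.151 under cyclic loess. The 4T1 tumors scored -0.99, -0.87 and -1.03, all above the -1.26, -1.27 and -1.43 of BALB/c glands. The Py230 tumors scored -1.66, -1.67 and -1.71 beside -1.74, -1.74 and -1.77 in C57BL/6 glands, a difference of 0.0691 (SE 0.054), against 0.356 in the 4T1 model.

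Ifi44l and Trim12a passed narrowly. Ifi44l was higher in tumors by 0.243 (SE 0.10, adjusted p = 0.0346), with 0.46, 0.36 and 0.30 in 4T1 tumors against 0.28, -0.15 and -0.39 in BALB/c glands, and -1.50, -1.48 and -1.48 in Py230 tumors against -1.53, -1.53 and -1.49 in C57BL/6 glands. Trim12a was lower by 0.123 on the score scale (difference -0.123, SE 0.0516, adjusted p = 0.0380). Its 4T1 tumors at -0.91, -0.98 and -1.15 overlapped with BALB/c glands at -0.91, -0.86 and -1.08, while its Py230 tumors at 0.30, 0.15 and 0.35 lay below the C57BL/6 glands at 0.42, 0.48 and 0.46. The call of Ifi44l was lost in 8 of the 36 fits that leave out 1 library, namely those of 6 w p.i. without 4T1 tumor 1, BALB/c gland 2 or 3, C57BL/6 gland 1 or 2, or Py230 tumor 1, 2 or 3 (0.168 to 0.246, adjusted p from 0.0501 to 0.135). That of Trim12a was lost in 6 of 36, without 4T1 tumor 3, BALB/c gland 1 or 2, C57BL/6 gland 2 or 3, or Py230 tumor 2 of 6 w p.i. (-0.122 to -0.0890, adjusted p from 0.0592 to 0.136). It was also lost with median and MAD scaling (-0.0632, adjusted p = 0.305) and with the 12 libraries of 6 w p.i. alone (adjusted p = 0.0656).

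**Figure D3:**
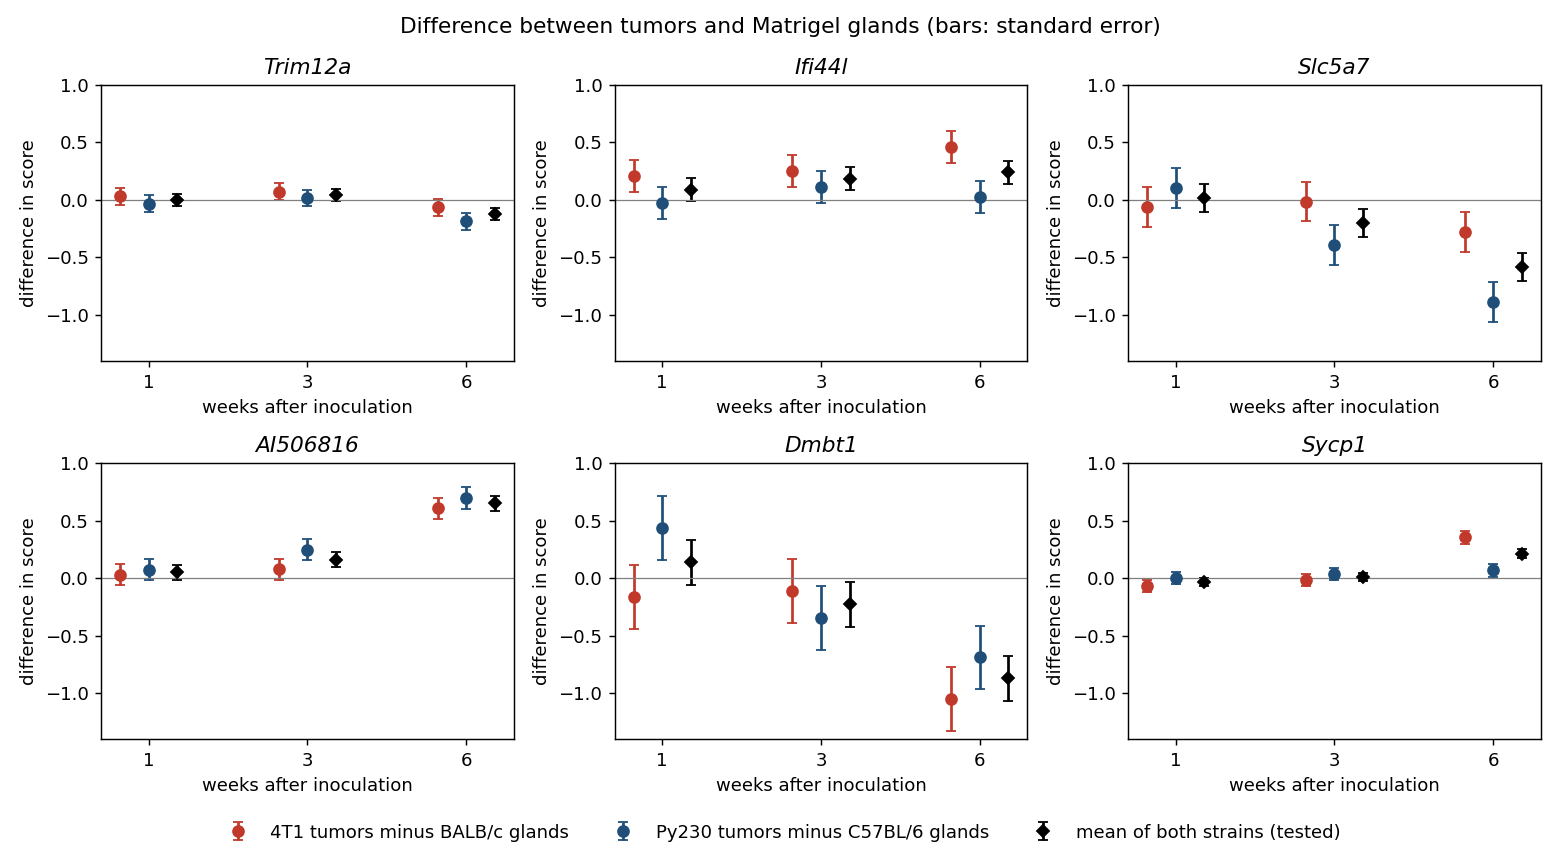
Difference in score between tumors and Matrigel glands (vertical axis) against weeks after inoculation for each gene, for 4T1 tumors minus BALB/c glands, Py230 tumors minus C57BL/6 glands and the tested mean of both, with standard errors. The tested mean lies within 0.226 of 0 at 1 and 3 weeks, and at 6 weeks it is 0.653 for AI506816 and -0.871 for Dmbt1.

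Over time, 4 of the 6 members changed in tumors from the first to the last week, 2 up and 2 down, while 56.4% of all genes did (37.3% up and 19.1% down). With cyclic loess scaling the rising genes made up 49.4% of these calls in place of 66.2%. AI506816 rose by 0.599 (SE 0.0653, adjusted p = 3.82e-08) and Sycp1 by 0.195 (SE 0.0382, adjusted p = 0.000122), whereas Dmbt1 fell by 0.701 (SE 0.196, adjusted p = 0.00375) and Slc5a7 fell by 0.427 (SE 0.122, adjusted p = 0.00451). These values are means over both tumor lines. The mean score of Slc5a7 went from 0.643 to -0.227 in Py230 tumors and from -1.31 to -1.29 in 4T1 tumors. That of Sycp1 went from -1.32 to -0.965 in 4T1 tumors and from -1.72 to -1.68 in Py230 tumors. AI506816 rose and Dmbt1 fell in both lines. Trim12a (-0.0857, adjusted p = 0.159) and Ifi44l (0.0282, adjusted p = 0.824) did not pass. Between 3 and 6 w p.i. 3 members passed, with 47.7% of all genes (30.8% up and 16.9% down; with cyclic loess 49.4% of the calls were up in place of 64.6%), namely AI506816 (0.411), Dmbt1 (-0.554, adjusted p = 0.0218) and Sycp1 (0.171). The call of Dmbt1 was lost in 4 of 36 fits, without 4T1 tumor 3, Py230 tumor 2 or Py230 tumor 3 of 3 w p.i. or without Py230 tumor 2 of 6 w p.i. (-0.494 to -0.428, adjusted p from 0.0579 to 0.0831). Slc5a7 (-0.276, adjusted p = 0.0651) passed in the same interval without Py230 tumor 1 of 3 w p.i. (-0.408, adjusted p = 0.00236) or without BALB/c gland 2 of 6 w p.i. (adjusted p = 0.0185).

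Between 1 and 3 w p.i. no member passed, with 6.17% of all genes called and 1 member, AI506816 (0.188, adjusted p = 0.0786), at an unadjusted p under 0.05, and it did pass without Py230 tumor 3 of 3 w p.i. (0.252, adjusted p = 0.00556). That Py230 tumor scored 1.01 for AI506816 beside 1.48 and 1.30 in the other two. In glands no member passed in any interval, nor had one an unadjusted p under 0.05. Of all genes 0.152% passed in glands from 1 to 3 w p.i., 0.0231% from 3 to 6 w p.i. and 0.831% from 1 to 6 w p.i.

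The change from 1 to 6 w p.i. differed between tumors and glands in 4 of the 6 members, with 43.0% of all genes called (28.9% higher and 14.1% lower in tumors). With cyclic loess 51.2% of these calls were higher, in place of 67.3%. Dmbt1 changed by -0.701 in tumors and 0.308 in glands, a difference of -1.01 (SE 0.277, adjusted p = 0.00489). AI506816 changed by 0.599 and -0.00171 (difference 0.601, adjusted p = 1.71e-05). Slc5a7 changed by -0.427 and 0.172 (difference -0.599, adjusted p = 0.00692), and Sycp1 by 0.195 and -0.0507 (difference 0.246, adjusted p = 0.000749). As given above, the change in tumors came mostly from the Py230 tumors for Slc5a7 and from the 4T1 tumors for Sycp1. The other line was low throughout, with Slc5a7 at -1.37 to -1.18 in 4T1 tumors and Sycp1 at -1.76 to -1.65 in Py230 tumors. Both ranges lie below the -1.0 to -0.67 of H2-Ea-ps in C57BL/6 libraries. A fall of Slc5a7 could hardly show there, so a response particular to 1 line cannot be read from these values.

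Tissue markers also differed between tumors and glands. At 6 w p.i. the mean score of 5 adipocyte genes (Adipoq, Plin1, Cidec, Lep and Fabp4) ranged from -0.338 to 1.04 in tumors and from 1.66 to 2.26 in glands, and 5 of 5 were called lower in tumors. The mean of 5 skeletal muscle genes ranged from -0.667 to 1.44 in tumors and from 1.92 to 2.93 in glands, also with 5 of 5 lower. The mean of 5 milk genes ranged from -0.703 to 0.696 in tumors and from 0.922 to 1.26 in glands, with 4 of 5 lower. Of 8 mammary epithelial genes 1 was higher and 4 were lower (0.555 to 1.60 in tumors, 1.42 to 1.70 in glands), and of 6 leukocyte genes 2 were higher and 1 was lower (0.173 to 0.527 and -0.155 to 0.157). The mean of the 8 epithelial genes lay above the mean of all genes in every library, and it was lowest (0.56) in 4T1 tumor 2 of 6 w p.i. Markers also differed between the strains on the mean of the 3 weeks. In glands 4 of 5 milk genes were called higher and 2 of 6 leukocyte genes lower in BALB/c, with none of the adipocyte, muscle and epithelial genes called, and in tumors 5 of 6 leukocyte genes were called higher and 4 of 8 epithelial genes lower in 4T1. Of the milk genes 1 was called higher and 2 lower in 4T1 tumors, and of the adipocyte genes 1 was lower. Over all genes 11.0% were called between the glands (5.50% higher and 5.49% lower in BALB/c). Between the tumors it was 44.5% (23.8% higher and 20.6% lower in 4T1), so a call there is common. The part of the tissue makeup in the members' values was not tested.

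Some single libraries that stood apart for a member also stood apart for some markers, and examples are given here. A link between members and markers was not tested. Py230 tumor 1 of 3 w p.i. scored -0.21 for Slc5a7 beside 0.45 and 0.70 in the other 2 tumors of its group, and 0.24 for Dmbt1 beside 1.12 and 1.28. Its adipocyte mean was 0.36 beside 1.76 and 2.02, and its muscle mean -0.73 beside 0.81 and 2.42. 4T1 tumor 1 of 3 w p.i. scored 0.58 for Ifi44l beside -0.05 and 0.01, and -0.64 for Dmbt1 beside -0.11 and -0.01. The adipocyte mean of that tumor was 0.66 beside 1.96 and 2.16, and its leukocyte mean 0.80 beside 0.30 and 0.30. Its muscle mean was 1.57 beside 2.46 and 1.61. BALB/c gland 2 of 6 w p.i., high for Slc5a7 and Dmbt1, had an adipocyte mean of 1.66 beside 1.98 and 1.93. Its muscle mean was 2.93 beside 2.54 and 2.51. BALB/c gland 3 of 3 w p.i. scored 0.66 for Dmbt1 beside -0.59 and -0.49. Its muscle mean was 0.34 beside 2.33 and 2.25, and its epithelial mean 1.63 beside 1.44 and 1.37. C57BL/6 gland 3 of 1 w p.i. also stood apart for muscle, at -0.61 beside 1.75 and 2.98. It scored 0.58 for Slc5a7 beside 0.48 and 0.57, and 0.75 for Dmbt1 beside 1.07 and 0.75. Without Py230 tumor 1 the tumor difference of Slc5a7 at 3 w p.i. was -1.86 in place of -1.59, and without BALB/c gland 2 the gland difference at 6 w p.i. was -1.96 in place of -1.67.

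After the group means were taken off, the deviations of the libraries correlated at 0.472 between Slc5a7 and Dmbt1 and at -0.435 between Slc5a7 and AI506816 over the 36 libraries. The other 13 pairs of members lay between -0.257 and 0.319. Libraries share the tissue makeup above and the scaling within a library, so these values are a description.

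The genes with the most similar pattern over the 36 libraries were found by Pearson's r, again as a description, since all such genes share the strains. For Trim12a they were Cldn34c1, a claudin gene (0.983), Gm17669 (0.980) and 2610507I01Rik (0.980). For Ifi44l they were the interferon-inducible Ifi202b (0.989), the meiotic Hormad1 (0.985) and Gm11127 (0.985). For Slc5a7 they were the non-coding 4930481A15Rik (0.960) and 2610035D17Rik (0.951), and the member Trim12a (0.947). For AI506816 they were the pseudogene 5830417I10Rik (0.976), the phosphatase gene Acp1 (0.975) and the ribosomal protein gene Rpl29 (0.974). For Dmbt1 they were the member Slc5a7 (0.901), Ppp1r3e (0.884) and Zfp14 (0.880), and for Sycp1 Vmn1r43, a vomeronasal receptor gene (0.963), and the pseudogenes Gm8210 (0.954) and Gm13841 (0.951). Most of these lie on other chromosomes than their member, the exceptions being Hormad1 with Ifi44l on chromosome 3 and Zfp14 with Dmbt1 on chromosome 7.

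Genes beside a member on the chromosome carry sequence of the same strain. Of 70 measured genes within 500 kb of a member, 9 (12.9%) were called in 1 direction in both glands and tumors on the mean of the 3 weeks, against 6.21% of all genes (3.16% higher and 3.05% lower in BALB/c). They lay near Trim12a (4 of 14), AI506816 (4 of 17) and Ifi44l (1 of 10), and none of 3 genes near Slc5a7, 14 near Dmbt1 and 12 near Sycp1 was counted. Within 1000 kb it was 12 of 126 genes (9.52%).

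Around Trim12a the counted genes were 4 of the 9 other Trim genes and none of the 5 other neighbours. Trim30d differed by -0.81 in glands and -0.46 in tumors, Trim5 by -0.64 and -0.46, and Trim34a by -0.36 and -0.44, so that these were lower in BALB/c as Trim12a was. Trim34b, 14.0 kb away, was higher in BALB/c (0.36 and 0.31). The closest relative Trim12c, 23.3 kb away, differed by 0.09 in glands (adjusted p = 0.136) and 0.15 in tumors (adjusted p = 0.00136), and Trim12a itself differed by -1.37 and -1.29. Neighbouring Trim genes thus differed in both directions within the same window.

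Near AI506816 the 4 counted genes were all higher in BALB/c, opposite to AI506816 itself (-1.53 in glands and -1.63 in tumors). They were the non-coding 2700038G22Rik (0.38 in glands and 0.24 in tumors), Lhfpl3 (0.23 and 0.11, with 0.173 in tumors under median and MAD scaling), the small nucleolar RNA gene Snord93 (0.08 and 0.20) and Gm3724 (0.08 and 0.10), of which Snord93 lies within the span of 2700038G22Rik. The gland call of Snord93 was lost in 13 of the 36 fits without 1 library (adjusted p from 0.0504 to 0.112). Near Ifi44l only the distant 4930555A03Rik was counted (0.13 and 0.24, the gland call lost without C57BL/6 gland 3 of 3 w p.i., adjusted p = 0.0512). Ifi44, the sister gene of Ifi44l 8.78 kb away, differed by 0.07 in glands (adjusted p = 0.741) and by 0.13 in tumors (adjusted p = 0.264).

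**Figure D4:**
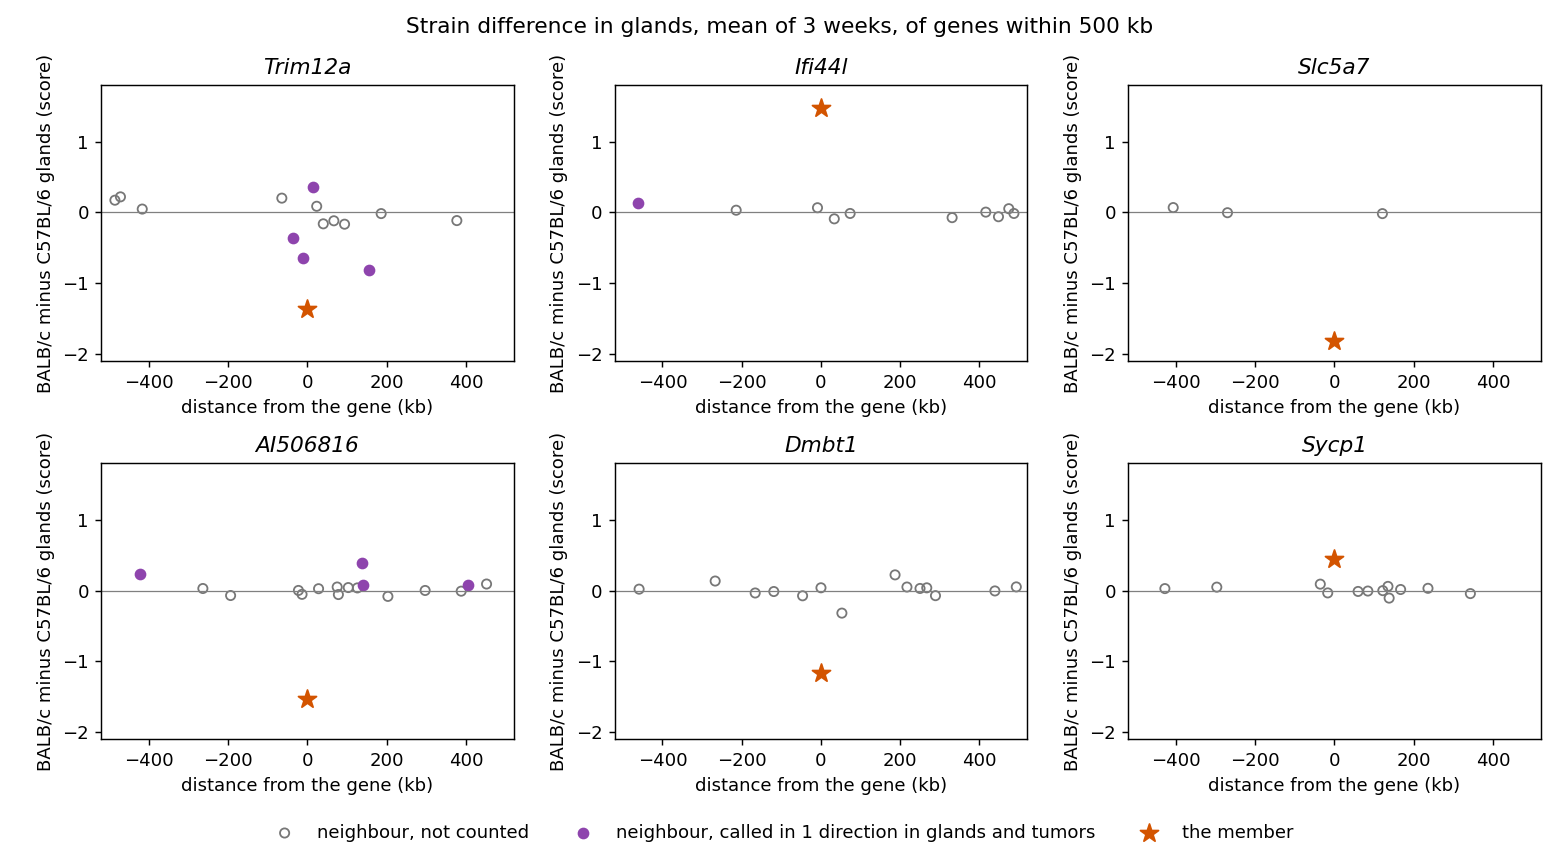
Difference in score between BALB/c and C57BL/6 Matrigel glands, mean of 3 weeks (vertical axis), against distance from the member in kb for each gene within 500 kb, with the member as a star at 0. Filled points are the 9 neighbours called in 1 direction in glands and tumors, of which 4 lie around Trim12a, 4 around AI506816 and 1 near Ifi44l.

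Genes with related roles were taken from lists written with earlier results of these data known, and the members were left out of the counts. For all genes, 11.0% were called between the glands of the strains (5.50% higher and 5.49% lower in BALB/c) and 44.5% between the tumors (23.8% higher and 20.6% lower in 4T1), 6.21% in 1 direction in both, and the median size of the gland difference was 0.0393. With median and MAD scaling 65.3% of the tumor calls were higher in 4T1, in place of 53.6%. In the TRIM cluster 4 of 13 genes were called in both (1 higher and 3 lower in BALB/c), the Trim genes given above, with a median size of 0.162 in glands.

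Of 33 interferon-stimulated genes 4 were called in both, all lower in BALB/c and so opposite to Ifi44l. Ifit3 differed by -0.44 in glands and -0.64 in tumors, Rsad2 (viperin) by -0.30 and -0.38, and Ifit1 by -0.27 and -0.37. The gland call of Ifit1 was lost in 10 of 36 fits without 1 library (adjusted p from 0.0648 to 0.119). The median difference of the list was -0.134 in glands and -0.125 in tumors, beside 0.00755 and 0.00842 over all genes. In tumors against glands over the 3 weeks, 23 of the 33 were higher and 1 was lower, when 64.8% of all genes were called (38.9% higher and 25.9% lower). Oas1a, an antiviral sensor, was among the highest (0.316), and Ifi27l2a was the one lower in tumors (-0.382).

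Of 15 measured genes of choline and acetylcholine handling none was called in both, where the limma calls were 0 higher and 0 lower in glands and 2 higher and 6 lower in tumors. Bche, the butyrylcholinesterase, was lower in tumors than in glands by 0.903 (difference -0.903), as was Chpt1, a choline phosphotransferase (-0.602). Among the genes not analysed here are Chat and Slc18a3, which with Slc5a7 mark cholinergic neurons.

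Of 16 scavenger receptor cysteine-rich genes 2 were called in both. Cd5l, a secreted macrophage protein, was lower in BALB/c by -0.73 in glands and -0.43 in tumors, as Dmbt1 was, and Corin, a protease, was higher (0.27 and 0.14). Between tumors and glands 5 were higher and 5 lower, the largest being Scara5 (-0.536) and Msr1 (0.438), both macrophage or tissue scavenger receptors.

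Of 10 measured genes of the synaptonemal complex and meiotic recombination 4 were called in both. Hormad1, which marks unpaired meiotic chromosomes, was higher in BALB/c by 1.09 in glands and 1.28 in tumors, and Msh5 by 0.41 and 0.60, as Sycp1 was, whereas the meiotic cohesin gene Rec8 was lower (-0.38 and -0.47). Stag3, the remaining one, was higher (0.13 and 0.26). The partners of Sycp1 in the complex that were measured, Sycp2 and Sycp3, differed in glands by 0.06 (adjusted p = 0.407) and 0.15 (adjusted p = 0.319). Sycp3 was lower in tumors than in glands (-0.315) and Hormad1 higher (0.116). Of this list 13 further genes were not analysed here.

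**Figure D5:**
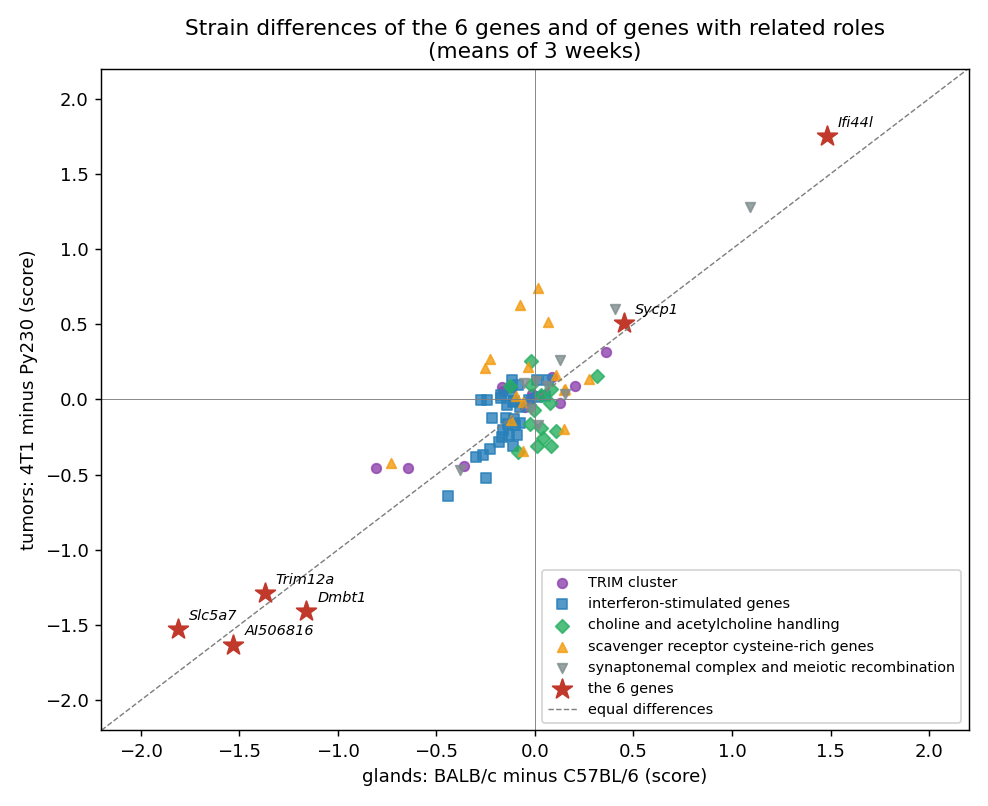
Difference between 4T1 and Py230 tumors (vertical axis) against difference between BALB/c and C57BL/6 glands (horizontal axis), both in score and averaged over 3 weeks, for the genes of 5 lists and for the 6 members as stars, with a dashed line where both are equal. The members lie near the line from -1.81 to 1.48 in glands, and of the list genes Hormad1 at 1.09 is the farthest from 0.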

How the data were processed

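RNA from tumors and Matrigel glands was made into stranded libraries and sequenced as paired reads of 75 bases. The authors mapped reads with STAR to mm10, counted them with summariseOverlaps and normalized with DESeq2, with versions and annotation not given in the sources used here. The deposited score values are centred on 0 with unit SD in each library, a step the methods do not describe, so depth is unknown and no count test was possible. The deposited mean normalized count (baseMean) gave levels only. Deposited fold changes, p-values and hallmark gene sets of the authors were not used.

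All 36 libraries were fitted with limma 3.58.1 in R 4.3.3 (1 mean per group, empirical Bayes with trend and robust) and p-values were adjusted by Benjamini-Hochberg over 21650 genes (threshold 0.05). Groups came from sample titles, and 0 columns stayed unmapped. Symbols of 5384 genes came from GENCODE. The labels do not say that libraries are separate animals, so p-values measure the spread between these samples. Of 54 pairs of libraries of 1 week with the same number, 17 had deviations correlated over 0.1 (range -0.543 to 0.789), so numbers were not taken as pairs. Members and lists were chosen with earlier results of these data known. Named besides the members were the 3 most similar genes each, up to 3 counted neighbours with the largest gland difference, per list up to 3 genes called in both and 2 between tumors and glands, and marker genes. Gm3724, Stag3, Trim34b, Trim12c, Ifi44, Sycp2 and Fgfr2 were named after their values were seen. Alternatives were other scalings, a count filter, other moderation, a replicate block, single weeks, a wider window and leaving out each library. The code was tested on simulated data.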

Additional observations from a re-analysis of the deposited data

Results flagged for a closer look

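The change from 1 to 6 w p.i. differed between tumors and glands, by a test of the difference itself (limma, adjusted p under 0.05 over all genes), in 4 members. It was larger in tumors for AI506816 (0.601, adjusted p = 1.71e-05) and Sycp1 (0.246, adjusted p = 0.000749), and lower in tumors for Slc5a7 (-0.599, adjusted p = 0.00692) and Dmbt1 (-1.01, adjusted p = 0.00489). With 43.0% of all genes called, such a difference was common in these data. The change in tumors came mostly from the Py230 tumors for Slc5a7 and from the 4T1 tumors for Sycp1. In each case the other line was low at every week, so a response particular to 1 line cannot be read from this. Adipocyte and muscle markers were lower in tumors than in glands at 6 w p.i. as given above, and their part in these differences was not tested.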

How the results depend on the processing

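Counts of members called kept within 1.5 times their value under cyclic loess, median and MAD scaling, a mean normalized count of at least 10, moderation without trend and robust, single weeks and the replicate block. With the replicate block, which treats same-numbered libraries as pairs although only 17 of 54 such pairs had deviations correlated over 0.1, the genes called at 1 w p.i. went from 247 higher and 179 lower to 586 and 480, but 6 members were called between tumors and glands at 6 w p.i. and 4 in the change over time in tumors, as without it, and the gland call of Snord93 was lost (0.0845, adjusted p = 0.0528). Leaving out each library in turn gave 0 to 1 members at 3 w p.i. for tumors against glands, 4 to 6 at 6 w p.i., 0 to 1 for tumors from 1 to 3 w p.i., 2 to 4 from 3 to 6 w p.i. and 4 to 4 from 1 to 6 w p.i., 6 to 10 neighbours and 12 to 15 list genes. Values near 0 turned with the scaling, Ifi44l in tumors from 1 to 6 w p.i. with cyclic loess (-0.000316) and AI506816 in glands from 1 to 6 w p.i. with median and MAD scaling (0.000212). Median and MAD scaling also moved the tumor difference at 6 w p.i. to -1.14 for Trim12a and 0.813 for Sycp1. The cause was not tested. Values near 0 also turned when single libraries were left out. For tumors against glands they ranged from -0.0158 to 0.0269 in Trim12a and from -0.00531 to 0.0379 in Slc5a7 at 1 w p.i., and from -0.0175 to 0.0371 in Sycp1 at 3 w p.i. For tumors from 1 to 3 w p.i. they ranged from -0.0498 to 0.0223 in Trim12a, from -0.137 to 0.0213 in Ifi44l and from -0.247 to 0.0145 in Dmbt1. For glands they ranged from -0.0465 to 0.00807 in Sycp1 from 1 to 3 w p.i., from -0.0864 to 0.0808 in Ifi44l, -0.0435 to 0.181 in Slc5a7 and -0.0214 to 0.291 in Dmbt1 from 3 to 6 w p.i., and from -0.0269 to 0.0272 in AI506816 from 1 to 6 w p.i. None of these values passed the test with all libraries. Depth is unknown, so its part in low genes such as Sycp1 was not tested.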
